A study of Mus musculus with 12 samples.

Results

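The collagen family was followed through cochlear organoids that overexpressed follistatin (FST), the RNA-binding protein LIN28B, both or neither. Members were chosen by name: every mouse gene whose symbol in the Ensembl v96 annotation is Col, a type number, the letter a and a chain number. This rule took 44 of 36047 genes and used no measured value, though the family was chosen with earlier results of these data known. All 44 had a count in at least 1 of the 12 libraries, and 41 passed the filter on low counts and were tested. Col6a4, Col6a5 and Col28a1 did not pass, with at most 6 counts in any library. By structure, 11 of the 44 genes encode fibrillar chains, 9 FACIT chains, 9 network-forming chains, 6 beaded-filament chains, 4 transmembrane chains and 2 multiplexins, with the anchoring fibril chain Col7a1 and 2 other genes, Col26a1 and Col28a1.

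Organoids were grown from cochlear epithelial cells of 5-day-old mice of both sexes. They were expanded for 7 days in Matrigel with EGF, FGF2, CHIR99021 and VPA, and all cultures, controls included, received doxycycline at 0.5 μg/ml and carried 1 copy of the R26rtTA*M2 transactivator. Control organoids came from R26rtTA*M2/+ littermates, FST organoids from TRE-FST-288 tg;R26rtTA*M2/+ mice, LIN28B organoids from Col1a1-TRE-LIN28B tg;R26rtTA*M2/+ mice, and FST+LIN28B organoids from mice with both transgenes. Each condition had 3 libraries, from 3 different animals by the study's methods. Because the transactivator is driven from the Rosa26 locus, transgene expression was not restricted to a cell type. The LIN28B cassette bears the name of the Col1a1 locus, which is itself a collagen gene, so that Col1a1 values in the LIN28B and FST+LIN28B organoids carry this limit.

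Collagens are built from 3 polypeptide chains that wind into a triple helix. Fibrillar collagens assemble into fibrils, in which type II is the main component of cartilage and, in the inner ear, of the tectorial membrane, and types V and XI regulate fibril diameter. FACIT collagens such as type IX attach to the surface of those fibrils, and network-forming type IV collagen makes the scaffold of basement membranes. In cochlear disease, mutations in the human genes for type II, IX and XI chains cause Stickler syndrome or deafness, and mutations of type IV chains cause Alport syndrome.

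Estimated counts totalled 42.7 to 65.3 M per library. Levels are given here as TPM, the relative number of transcripts, which account for length and were computed from the estimated counts, and differences as log2 fold changes with their standard error (SE) from 1 edgeR fit of the 12 libraries, with a threshold of an adjusted p under 0.01 over 18780 genes. The second FST library stood apart. It was the shallowest, held 8.79% of its TPM in transcripts annotated as retained introns, against 5.54% to 7.14% in the other 11, and its log2 CPM correlated least with those of its own condition (lowest r = 0.951). Epithelial markers were high in all conditions, with summed levels of 1774 to 2317 CPM (counts scaled to library size) over 7 genes, Epcam among them. None of these 7 passed the test against control in FST, LIN28B or FST+LIN28B organoids. Mesenchyme and fibroblast markers were present too, at 1260 to 2325 CPM over 15 genes, of which 12 were tested and none passed in those 3 comparisons. Their sum lay between 1260 and 1757 CPM in FST+LIN28B organoids and between 1858 and 1964 CPM in control. The endothelial list held 22.6 to 116 CPM and the immune list 3.48 to 7.36 CPM.

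The family as a whole was dominated by chains of types II, IX and XI and by type XVIII. In control organoids the summed collagen level was 2347 TPM ± 115 (SD, n = 3), and Col2a1, Col9a1, Col9a2, Col9a3, Col11a1 and Col11a2 together made up 72.0% ± 3.07 (SD, n = 3) of it. In order of mean level in control organoids, Col9a2 came first at 611 TPM, followed by Col2a1 at 404, Col18a1 at 362, Col9a1 at 285, Col11a1 at 178 and Col9a3 at 142 TPM. Of the neighbours in this order, only Col2a1 and Col18a1 had control libraries that overlapped. Just 5 chains, Col9a2, Col2a1, Col18a1, Col9a1 and Col11a1, held 73.0% to 79.6% of the collagen TPM in every library. In 12 of the 44 genes the level was at least 10 TPM in each library, and 15 stayed under 1 TPM in each. Among the latter were the main chains of fibrous connective tissue: Col1a2, a partner of type I collagen, reached at most 0.624 TPM, Col3a1 0.465, Col5a2 0.252, Col6a1 0.313, Col6a2 0.774 and Col6a3 0.450 TPM. The sum of Col1a1, Col1a2, Col3a1, Col6a1, Col6a2 and Col6a3 was 0.0836% to 0.344% of the collagen TPM. The fibroblast genes Dcn and Lum stood at 476 to 1124 CPM in the same libraries. Of the chondrocyte list, the defining markers Acan and Matn1 were under 1 CPM in each library, and Cnmd, which encodes chondromodulin, was at 61.8 to 297 CPM.

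**Figure D1:**
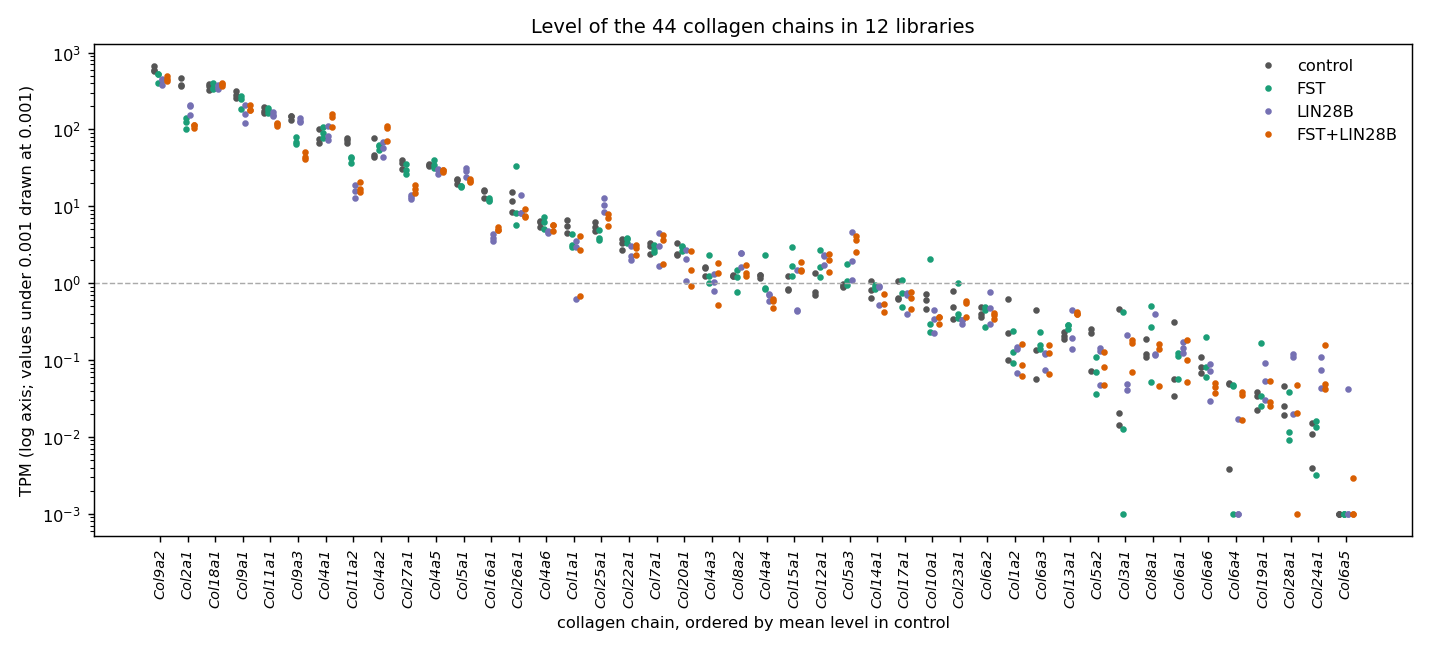
Level in TPM (log axis) of each of the 44 collagen chains, ordered from left to right by mean level in control organoids; each point is 1 library, colours mark the 4 conditions, and the dashed line is 1 TPM. Col9a2, Col2a1 and Col18a1 lie at the top and 15 chains lie under 1 TPM in all 12 libraries.

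The first question was how FST and LIN28B together, and each alone, changed collagen expression relative to control. In FST+LIN28B organoids 5 of 41 tested chains fell and none rose: Col2a1, Col11a2, Col27a1, Col9a3 and Col16a1. Their log2 fold changes ran from −0.99 for Col27a1 to −2.07 for Col11a2. Over all genes 1.26% were called in this comparison and 0.463% were called lower, against 12.2% of the chains. This contrast is descriptive. The family was chosen with earlier results known, and the study lists Col2a1, Col11a2 and Col9a3 among its down-regulated genes. In LIN28B organoids Col2a1, Col11a2, Col27a1 and Col16a1 fell and Col25a1 rose, which is 12.2% of the chains beside 3.43% of all genes (2.1% higher and 1.33% lower). In FST organoids Col2a1 alone fell, as 1 of 4 genes called in the whole table, which is 0.0213% of all genes. The median log2 fold change of the 41 chains was −0.33 with both transgenes, −0.25 with LIN28B alone and 0.02 with FST alone, beside −0.01, −0.03 and 0.04 over all genes tested. These comparisons share the control libraries. The count in FST+LIN28B organoids was 8 without the second FST library, and the count in LIN28B organoids was 3 without the second or the third control library or without the first or the second LIN28B library. These are bulk libraries, so fewer cells of a type and less RNA per cell cannot be told apart.

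**Figure D2:**
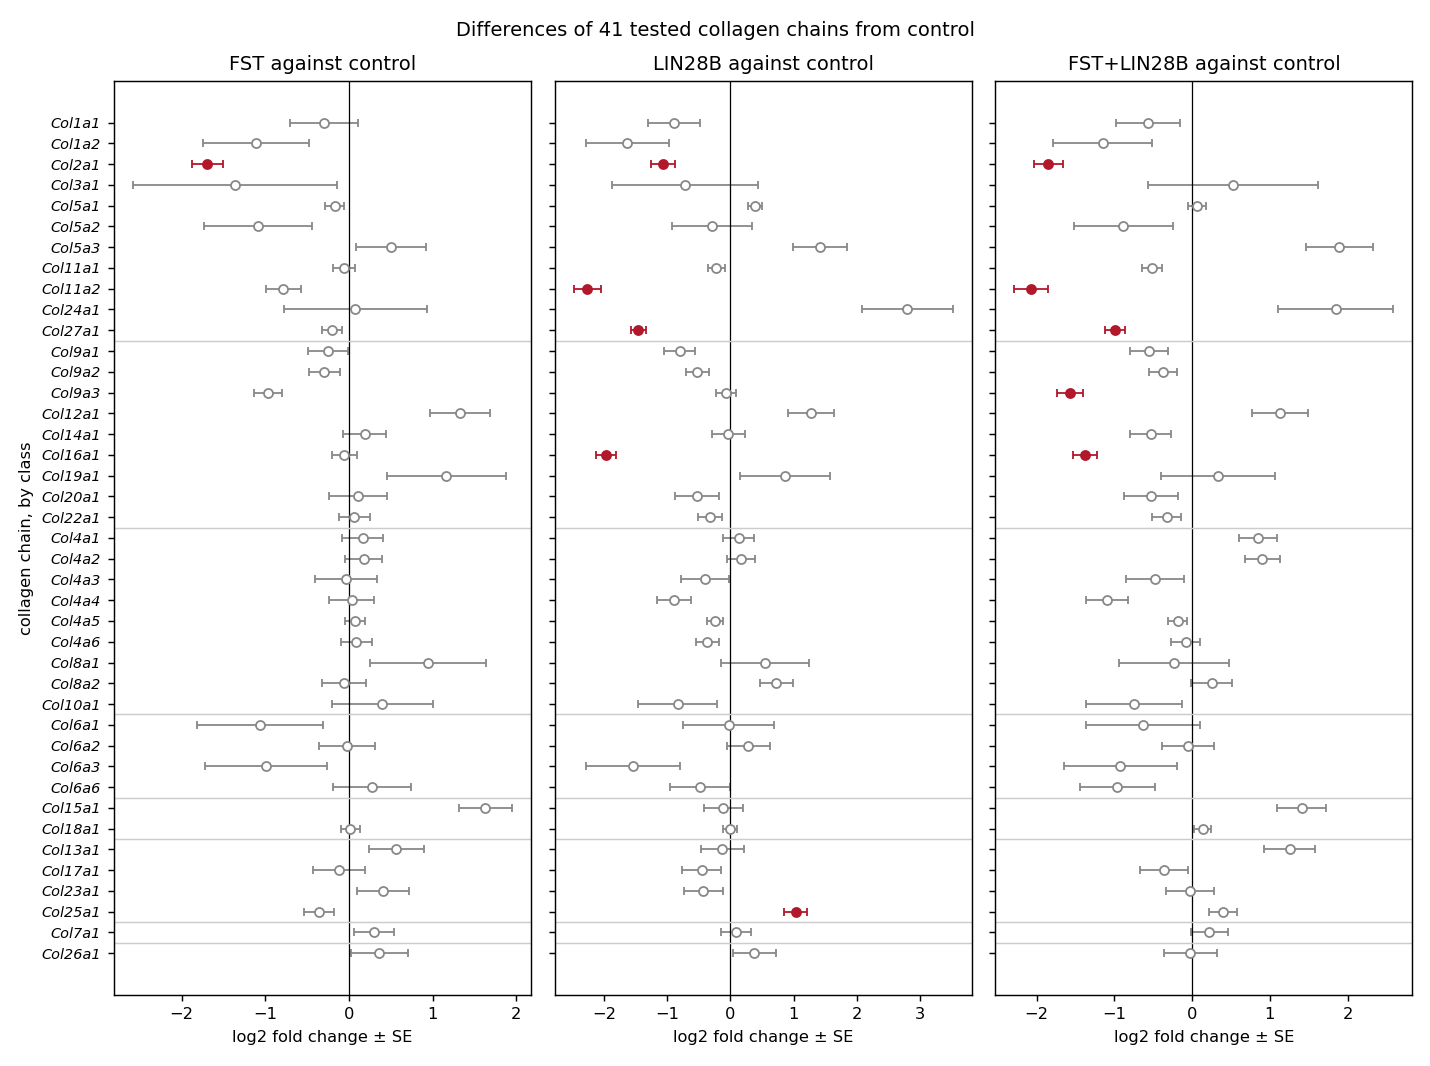
log2 fold change against control with its SE for each of the 41 tested collagen chains, in FST, LIN28B and FST+LIN28B organoids (3 libraries per condition), in blocks by class; filled red points passed an edgeR adjusted p under 0.01, and the fold change axes differ in length. Col2a1 is filled in all 3 panels, and Col11a2, Col27a1 and Col16a1 in the 2 panels with LIN28B.

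The fibrillar class held 3 of the called chains. Col2a1 (chr15:97975602-98004695, minus strand, GRCm38) encodes the type II chain and forms a homotrimer. Its level was 366, 471 and 374 TPM in the control libraries, 141, 125 and 102 TPM in FST, 200.9, 156 and 208 TPM in LIN28B, and 103, 114 and 113 TPM in FST+LIN28B. In TPM the control libraries were above all others, the LIN28B libraries lay between, and the FST and FST+LIN28B libraries overlapped at the bottom. In CPM the first FST library (446) lay above the second LIN28B library (435). In FST organoids Col2a1 fell by 1.69 ± 0.19 on the log2 scale (SE; edgeR adjusted p = 0.00637), and in LIN28B organoids it fell by 1.07 ± 0.18 (SE; edgeR adjusted p = 0.00422). Its difference between FST+LIN28B and FST was −0.15 ± 0.18, and between FST+LIN28B and LIN28B it was −0.78 ± 0.18 (SE; edgeR adjusted p = 0.705 and 0.0597). The interaction term, which asks whether the difference with both transgenes departs from the sum of the single differences, was 0.92 ± 0.26 for Col2a1 (SE; edgeR adjusted p = 0.897).

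The FST call of Col2a1 was lost in 10 of 12 fits that left out a library, namely each of the control and FST+LIN28B libraries, the second or the third FST and the first or the third LIN28B library, with adjusted p = 0.0107 to 0.0437 in edgeR and a log2 difference of −1.90 to −1.54 over the 12 fits. The LIN28B call was lost without the second or the third control, the first or second LIN28B or the first FST+LIN28B library, with edgeR adjusted p = 0.0107 to 0.0297. The annotation holds 2 long coding transcripts of Col2a1, and the transcript with the alternatively spliced second exon encodes the type IIA form, which is known from cartilage precursors. That transcript made up 84.0% ± 2.09 of the pair's TPM in control, 82.2% ± 2.38 with FST, 80.9% ± 2.30 with LIN28B and 84.2% ± 0.545 with both (SD, n = 3). In the exact permutation test of these shares, two-sided, p was 0.9 for FST+LIN28B, 0.2 for LIN28B and 0.5 for FST against control, where 0.1 is the smallest p that 3 against 3 libraries can give.

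Col11a2 (chr17:34039437-34066685, plus strand) encodes the second chain of type XI collagen, a heterotrimer that sits inside type II fibrils. Its level was 66.3, 78.4 and 73.7 TPM in control, 43.7, 36.1 and 42.5 TPM with FST alone, 15.8, 12.7 and 18.9 TPM with LIN28B alone, and 16.9, 20.6 and 15.1 TPM with both. The 6 libraries with LIN28B overlapped among themselves and lay below all FST libraries, which lay below all control libraries. Col11a2 fell by 2.26 ± 0.22 on the log2 scale in LIN28B organoids, 4.79-fold (SE; edgeR adjusted p = 0.000142). It also fell by 1.28 ± 0.21 from FST to FST+LIN28B (SE; edgeR adjusted p = 0.00768), a call lost in 9 of 12 fits that left out a library, where only those without the second FST, the second LIN28B or the third LIN28B library kept it (adjusted p = 0.0135 to 0.051 in the 9). In FST organoids the difference from control was −0.78 ± 0.21 (SE; edgeR adjusted p = 0.455).

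Col27a1 (chr4:63214004-63334991, plus strand) encodes the fibrillar chain of type XXVII collagen, known from cartilage. Control libraries held 30.2, 39.6 and 36.9 TPM, FST libraries 30.1, 35.9 and 26.3 TPM, LIN28B libraries 12.5, 13.1 and 14.1 TPM, and FST+LIN28B libraries 15.04, 18.8 and 16.7 TPM. Control and FST libraries overlapped, and every library with LIN28B was below every library without it. Col27a1 fell by 1.45 ± 0.13 on the log2 scale in LIN28B organoids and by 0.99 ± 0.12 in FST+LIN28B organoids against control (SE; edgeR adjusted p = 9.55e-05 and 0.00139). The second call was lost without the second or the third control or the first or the third FST+LIN28B library (edgeR adjusted p = 0.011 to 0.0133). From FST to FST+LIN28B it fell by 0.79 ± 0.12 (SE; edgeR adjusted p = 0.00622), and this call was kept without the first or second control, the second FST or the third LIN28B library and lost without any other (adjusted p = 0.0116 to 0.0484). Coding transcripts held 32.2% to 45.8% of the TPM of Col27a1, and with coding transcripts alone the last difference was −0.69 ± 0.15 (SE; edgeR adjusted p = 0.0326).

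Of the fibrillar chains that were not called, Col11a1 and Col5a1 were abundant. Col11a1, which encodes the first chain of type XI collagen, was at 173, 198 and 163 TPM in control, 166, 188 and 181 TPM with FST alone, 169, 150.3 and 155 TPM with LIN28B alone, and 123, 118 and 112 TPM with both. The FST+LIN28B libraries were below all others, and the difference from control was −0.51 ± 0.13 (SE; edgeR adjusted p = 0.056). Col5a1, a chain of type V collagen, was at 22.4, 21.8 and 19.5 TPM in control, 18.4, 17.8 and 18.6 TPM with FST alone, 28.7, 31.4 and 24.0 TPM with LIN28B alone, and 22.4, 20.5 and 21.2 TPM with both. LIN28B libraries were above all others, with a difference from control of 0.39 ± 0.11 (SE; edgeR adjusted p = 0.057). The other 6 fibrillar chains stayed under 7 TPM in each library. Of these, Col5a3 reached 4.59 TPM and differed by 1.90 ± 0.43 between FST+LIN28B and control (SE; edgeR adjusted p = 0.030).

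Col1a1 was measured at 6.58, 4.56 and 5.50 TPM in control, 3.11, 4.30 and 2.93 TPM with FST alone, 0.616, 2.93 and 3.50 TPM with LIN28B alone, and 4.17, 0.677 and 2.69 TPM with both. The libraries with LIN28B spread widely and overlapped with FST, and control libraries were above all others in TPM. In CPM the first FST+LIN28B library (4.81) lay above the third control library (4.67). Of its TPM, coding transcripts held 27.0% over the pooled libraries, and most of the rest came from a short processed transcript that reached 4.24 TPM. Col1a1 was not called, with −0.89 ± 0.41 in LIN28B organoids (SE; edgeR adjusted p = 0.24), and the part of the transgene cassette in these values was not tested.

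**Figure D3:**
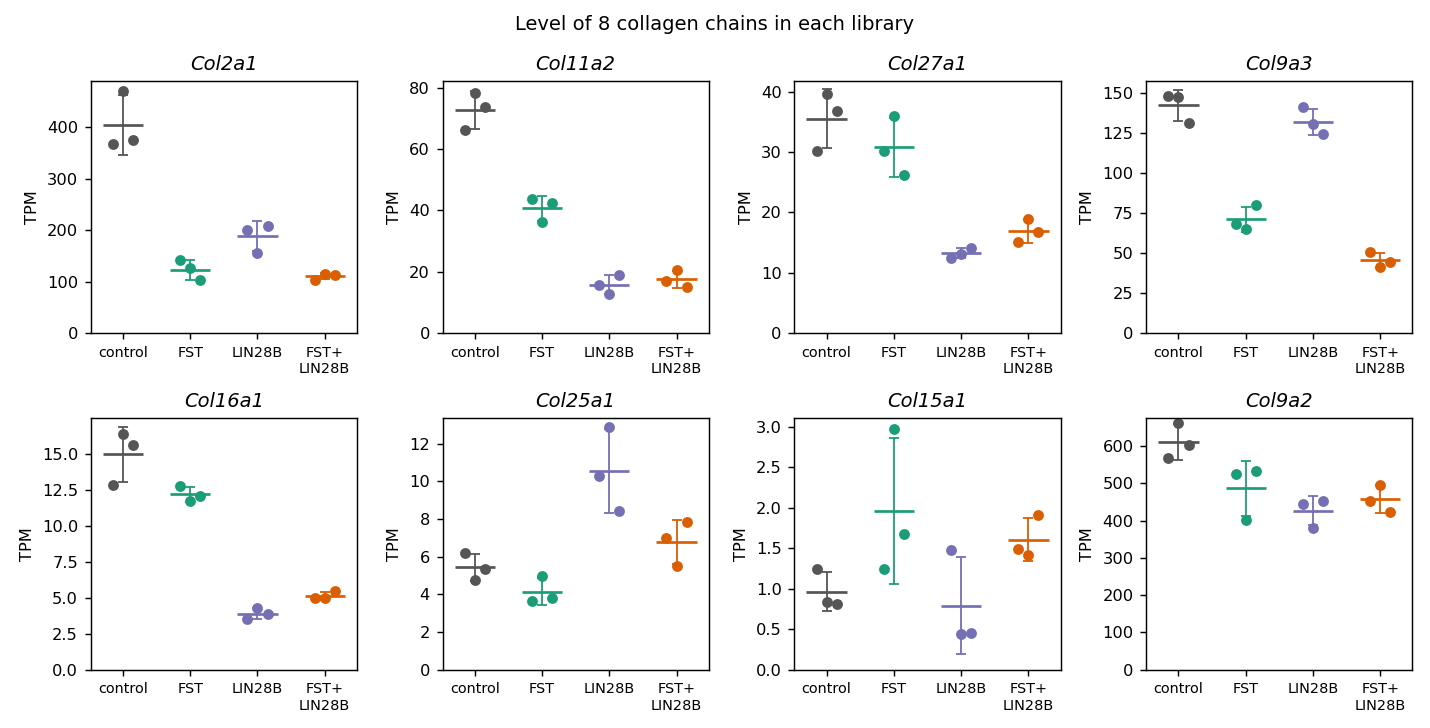
Level in TPM of 8 collagen chains in each of the 12 libraries; points are libraries, horizontal lines are means and error bars are SD (n = 3), on linear axes that start at 0. Col2a1 is highest in control, Col11a2, Col27a1 and Col16a1 are lowest in the conditions with LIN28B, Col9a3 is lowest in those with FST, and Col25a1 is highest in LIN28B; Col9a2, the most abundant chain, was not called.

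FACIT chains gave the largest share of collagen TPM, and 2 of 9 were called. Col9a3 (chr2:180597790-180622189, plus strand) encodes the third chain of type IX collagen, which coats type II fibrils. It was at 148, 148 and 131 TPM in control, 68.0, 65.2 and 79.9 TPM with FST alone, 141, 130.3 and 124 TPM with LIN28B alone, and 50.3, 41.5 and 44.3 TPM with both. Control and LIN28B libraries overlapped, and every library with FST was below every library without it. Against LIN28B organoids, Col9a3 fell by 1.499 ± 0.17 on the log2 scale in FST+LIN28B organoids, 2.83-fold (SE; edgeR adjusted p = 0.00101), and it was the only collagen called there, beside 0.506% of all genes. This call held in each of the 12 fits that left out a library, and without the second FST library 2 chains were called. LIN28B alone differed from control by −0.07 ± 0.16 and FST alone by −0.97 ± 0.16 (SE; edgeR adjusted p = 0.863 and 0.081).

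The partner chains of type IX were not called in any comparison. Col9a1 was at 259, 314 and 282 TPM in control, 269, 185 and 248 TPM with FST alone, 157, 119.6 and 208 TPM with LIN28B alone, and 179, 207 and 178 TPM with both. Every library with LIN28B lay below every control library, with differences of −0.80 ± 0.24 in LIN28B and −0.55 ± 0.24 in FST+LIN28B (SE; edgeR adjusted p = 0.065 and 0.29). Of the TPM of its 2 coding transcripts, 99.8% or more in each library came from the one with the downstream start, which lacks the amino-terminal globular domain. Col9a2 was at 569, 662 and 601 TPM in control, 526, 401 and 532 TPM with FST alone, 445, 381 and 451 TPM with LIN28B alone, and 454, 497 and 423 TPM with both. Control libraries were above all others for Col9a2 in TPM. In CPM the first and the third FST library (1007 and 1027) lay above the first control library (985). The difference of Col9a2 in LIN28B was −0.52 ± 0.18 (SE; edgeR adjusted p = 0.11).

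Col16a1 (chr4:130047840-130099283, plus strand) encodes the FACIT chain of type XVI collagen, found near basement membranes and in cartilage. It was at 12.8, 16.4 and 15.6 TPM in control, 12.7, 11.7 and 12.03 TPM with FST alone, 3.51, 4.31 and 3.88 TPM with LIN28B alone, and 4.97, 4.98 and 5.45 TPM with both. In TPM no condition overlapped with another, though the lowest control and the highest FST library lay close together. In CPM the control libraries (23.4 to 32.2) overlapped with the FST libraries (22.8 to 31.9). FST alone differed from control by −0.05 ± 0.15 on the log2 scale (SE) and was not called. The libraries with LIN28B were far below both on either scale. Col16a1 fell by 1.97 ± 0.16 on the log2 scale in LIN28B organoids, 3.92-fold, and by 1.38 ± 0.15 in FST+LIN28B organoids (SE; edgeR adjusted p = 7.12e-05 and 0.000784). The 2 calls held in each of the 12 fits that left out a library. From FST to FST+LIN28B it fell by 1.32 ± 0.15 (SE; edgeR adjusted p = 0.00149), a call lost without the first or the third FST+LIN28B library (adjusted p = 0.01 and 0.0126) and with coding transcripts alone (adjusted p = 0.0133).

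Col2a1, Col11a2, Col27a1 and Col16a1 fell in both conditions with LIN28B, and the promoters of the last 3 of them, the ones in the RefSeq table, are shown because these genes moved together. Each window covers 250 bases before to 50 after the RefSeq start on GRCm38.p6, and capitals mark matches on either strand to the TATA box TATAAA, the CCAAT box, the GC box GGGCGG, the SOX motif AACAAT or the SMAD box CAGAC, none of which contains another. Col11a2 is chr17:34038888-34039187, Col16a1 chr4:130047590-130047889 and Col27a1 chr4:63215162-63215461, all on the plus strand.
Col11a2: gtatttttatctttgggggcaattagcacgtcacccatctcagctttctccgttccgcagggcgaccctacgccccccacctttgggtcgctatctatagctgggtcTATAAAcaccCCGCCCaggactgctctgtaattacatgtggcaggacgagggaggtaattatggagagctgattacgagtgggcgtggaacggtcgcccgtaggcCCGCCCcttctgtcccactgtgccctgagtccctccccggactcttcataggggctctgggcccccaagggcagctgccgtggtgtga
Col16a1: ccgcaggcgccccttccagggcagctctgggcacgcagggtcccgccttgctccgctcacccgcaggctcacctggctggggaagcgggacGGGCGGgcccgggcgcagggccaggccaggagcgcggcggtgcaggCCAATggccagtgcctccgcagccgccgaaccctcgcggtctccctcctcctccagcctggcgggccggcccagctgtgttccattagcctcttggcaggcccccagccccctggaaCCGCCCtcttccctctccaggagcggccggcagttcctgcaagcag
Col27a1: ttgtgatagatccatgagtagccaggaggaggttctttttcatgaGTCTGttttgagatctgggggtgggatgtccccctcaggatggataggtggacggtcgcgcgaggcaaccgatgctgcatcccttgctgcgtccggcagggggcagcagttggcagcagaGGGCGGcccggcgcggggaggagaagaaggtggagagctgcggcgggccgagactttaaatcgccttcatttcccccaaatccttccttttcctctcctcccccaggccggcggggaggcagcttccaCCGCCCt
In these RefSeq sequences all 3 windows held GGGCGG, as did 60.5% of 38 collagen promoters and 35.7% of 32851 promoters in the table. Col11a2 alone of the 3 held TATAAA, found in 13.6% of all promoters, Col16a1 alone held CCAAT, found in 37.4%, and Col27a1 alone held CAGAC, found in 49.6%. No match to AACAAT, found in 10.7%, was in the 3 windows. The table held 35 of the 44 members and had no entry for Col2a1, Col9a3 and Col1a1, among others.

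LIN28B blocks the maturation of let-7 microRNAs, which bind mRNAs through bases 2 to 8, the seed. No microRNA was measured here, so the letters alone are described. The 9 members of the family in the RefSeq table share the seed in capitals, and 3 are shown to be read against the sites.
let-7a-5p (chr13:48538239-48538260, minus strand): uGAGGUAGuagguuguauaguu
let-7g-5p (chr9:106178846-106178867, plus strand): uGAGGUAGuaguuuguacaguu
miR-98-5p (chrX:151913229-151913250, plus strand): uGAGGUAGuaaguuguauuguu
The longest annotated 3′ UTR of each gene was searched on its own strand for CTACCTC and TACCTCA, which overlap in the 8-base match CTACCTCA. Of the 41 tested chains 18 had a match, or 43.9%, beside 17.2% of the 16334 tested genes with an annotated 3′ UTR, at median UTR lengths of 1049 and 1197 bases. An 8-base match was held by 3 chains, Col1a2, Col3a1 and Col5a2, all under 1 TPM in every library. Col1a1 held 1 match to CTACCTC (chr11:94952390-94952419, plus strand), which is not printed. The 8-base sites follow, with the sites of the other chains called or at a mean of at least 20 TPM in a condition. They are written 5′ to 3′ on the transcript (GRCm38 positions), with the match in capitals.
Col1a2 (chr6:4541062-4541091, plus strand): ttccaaaggtttgaaCTACCTCAagacact
Col3a1 (chr1:45349135-45349164, plus strand): tcctccctatgttaaCTACCTCAactggtc
Col5a2 (chr1:45375094-45375123, minus strand): atttcttagcatgacCTACCTCAtctctgc
Col27a1, first site (chr4:63333883-63333912, plus strand): ctggggtgctgtgtgCTACCTCccactgtg
Col27a1, second site (chr4:63334728-63334757, plus strand): attttagttatttaaTACCTCActcccacc
Col9a3 (chr2:180621612-180621641, plus strand): tttatggcagcccaaTACCTCAgacacagg
Col4a1 (chr8:11199674-11199703, minus strand): gaattatatcctgtgTACCTCActgtccac
Col4a2 (chr8:11448536-11448565, plus strand): ttactcttaacttatTACCTCAgatgctga
Col9a1 (chr1:24252197-24252226, plus strand): acaagctgttcacatTACCTCAgttgctgt
Col4a5 (chrX:141688300-141688329, plus strand): atgaagattcagatgTACCTCAgcaatgtg
Col15a1 (chr4:47312419-47312448, plus strand): aaaccaaagaaaacaTACCTCAgtatactc
In LIN28B organoids the median log2 fold change was −0.27 over the 18 chains with a match, of which 13 were negative, and −0.22 over the 23 without, of which 15 were negative. In FST+LIN28B organoids the medians were −0.36 and −0.33. Col11a2, Col16a1 and Col2a1 had no match. Col27a1, with 2 sites, fell in LIN28B organoids, and Col9a3, with 1, differed there by less than its SE. Over the 18 chains with a match, values in LIN28B organoids ran from −1.63 for Col1a2 to 2.79 for Col24a1. Neither was called, and they had 6 to 85 and 1 to 29 counts per library.

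Network-forming chains made up a larger part of the collagen pool in FST+LIN28B organoids, although none of the 9 passed the test singly. Col4a1 and Col4a2 together held 82.7% to 87.8% of the network TPM there and 71.3% to 80.0% in control. Over the 9 chains the median log2 fold change of FST+LIN28B against control was −0.18, so the class did not rise as a whole. Col4a1 and Col4a2 encode the chains of the most widespread type IV trimer. Col4a1 was at 102, 76.2 and 67.1 TPM in control, 90.1, 77.3 and 108 TPM with FST alone, 111, 82.4 and 72.4 TPM with LIN28B alone, and 144, 161 and 108 TPM with both. Col4a2 was at 77.5, 47.2 and 44.2 TPM in control, 54.4, 60.9 and 61.9 TPM with FST alone, 68.4, 57.5 and 44.2 TPM with LIN28B alone, and 104, 110.4 and 71.4 TPM with both. In TPM the FST+LIN28B libraries of Col4a1 lay above the control and FST libraries and overlapped with LIN28B. For Col4a2 the first control library was above the lowest FST+LIN28B library in TPM. In CPM the third FST library (348) lay above the third FST+LIN28B library (332) for Col4a1. For Col4a2 the FST+LIN28B libraries, the lowest at 269 CPM, lay above all others on that scale. The differences between FST+LIN28B and control were 0.85 ± 0.24 for Col4a1 and 0.90 ± 0.22 for Col4a2 (SE; edgeR adjusted p = 0.080 and 0.044). DESeq2 called 4 collagens higher in this comparison, against none in edgeR, and the share of all genes was not computed for DESeq2.

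Col4a1 (minus strand) and Col4a2 (plus strand) start 21 bases apart on chromosome 8, and their promoter windows share 78 bases, shown here on the plus strand at chr8:11312777-11312854 (GRCm38.p6) with the GC box GGGCGG in capitals. It is shown because the ratio of the 2 chains varied little between conditions.
Col4a1 and Col4a2: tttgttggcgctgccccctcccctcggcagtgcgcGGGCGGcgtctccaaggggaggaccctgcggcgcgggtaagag
Col4a5, a chain of the type IV trimer of specialised basement membranes, was at 33.4, 35.7 and 34.4 TPM in control, 31.9, 34.3 and 40.3 TPM with FST alone, 30.6, 29.7 and 26.7 TPM with LIN28B alone, and 29.5, 29.9 and 28.4 TPM with both. Libraries with LIN28B were below all others in TPM, but in CPM the second FST library (121) lay below the first LIN28B library (124). The differences of Col4a5 from control were −0.25 ± 0.12 in LIN28B and −0.18 ± 0.12 in FST+LIN28B (SE; edgeR adjusted p = 0.28 and 0.55). The other 6 network chains stayed between 0.0462 and 7.26 TPM. Of those, Col4a4 fell short of the threshold in FST+LIN28B organoids at −1.10 ± 0.27 (SE; edgeR adjusted p = 0.044).

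The remaining classes held 1 called chain against control. Col25a1 (chr3:130131501-130599877, plus strand) encodes a transmembrane collagen of neurons that is known for its role in motor innervation. It was at 6.20, 4.79 and 5.32 TPM in control, 3.66, 4.99 and 3.82 TPM with FST alone, 10.3, 12.9 and 8.45 TPM with LIN28B alone, and 6.98, 5.52 and 7.84 TPM with both. LIN28B libraries were above all others. Col25a1 rose by 1.03 ± 0.18 on the log2 scale in LIN28B organoids (SE; edgeR adjusted p = 0.00483). This call was lost without any 1 of the 3 control libraries or the first or second LIN28B library (edgeR adjusted p = 0.0126 to 0.0281). It was also lost with the replicate number as a block and in both limma fits. Coding transcripts held 33.0% to 56.2% of the TPM of Col25a1, and the call held with coding transcripts alone.

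The multiplexins carry an endostatin domain at their carboxyl end and lie in basement membranes. Col18a1, whose mean level was below those of Col9a2 and Col2a1 in control organoids and below that of Col9a2 alone in the other conditions, was at 364, 331 and 390.2 TPM in control, 339.6, 396 and 348 TPM with FST alone, 374, 336 and 359.5 TPM with LIN28B alone, and 389, 365 and 400.3 TPM with both. All conditions overlapped, and its differences from control lay between −0.01 and 0.14 with an SE of 0.11. Col15a1 (chr4:47208161-47313167, plus strand) was at 1.24, 0.839 and 0.814 TPM in control, 1.24, 2.97 and 1.67 TPM with FST alone, 1.48, 0.438 and 0.448 TPM with LIN28B alone, and 1.495, 1.42 and 1.91 TPM with both. On this scale its conditions overlapped except that FST+LIN28B lay above control, whereas in CPM, the scale nearest to the counts tested, the 6 libraries with FST (2.71 to 5.25) lay above the 6 without (0.664 to 1.48). Col15a1 passed the test of any difference among the 4 conditions (edgeR adjusted p = 0.00418) and no pairwise test. Its difference from control was 1.63 ± 0.32 in FST, where the second library was highest, and 1.41 ± 0.31 in FST+LIN28B (SE; edgeR adjusted p = 0.14 and 0.028).

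Beaded-filament chains, which form the type VI microfibrils of connective tissue, were low: the 4 tested reached at most 0.774 TPM, and none passed any of the tests. Col7a1, the anchoring fibril chain, stayed between 1.67 and 4.51 TPM. Col26a1 reached 33.6 TPM in the second FST library beside 5.77 to 15.4 TPM in the other 11, and 31.7 of those 33.6 TPM came from a transcript annotated as a retained intron. Col10a1, a chain of hypertrophic cartilage, was at 2.03 TPM in that library and at 0.223 to 0.721 TPM in the others. Col26a1, Col1a1 and Col10a1 are described because of values seen here and were called in none of the tests.

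The test of any difference among the 4 conditions called 7 chains, Col2a1, Col11a2, Col27a1, Col9a3, Col16a1, Col25a1 and Col15a1, beside 5.03% of all genes. From FST to FST+LIN28B, Col11a2, Col16a1 and Col27a1 fell and no chain rose, beside 0.953% of all genes called, with 0.57% higher and 0.383% lower. Without a library that count of 3 became 1 (the third control, first or the third FST, first LIN28B or second FST+LIN28B library) or 0 (first or the third FST+LIN28B library). No chain passed the interaction test in edgeR, where 0.00532% of all genes did. Without adjustment 6 chains had an edgeR p under 0.05. The share of all genes at that looser threshold was not computed, so nothing is drawn from this count. DESeq2 likewise called 0 chains in the interaction test. The largest interaction terms among called chains were 0.98 ± 0.30 for Col11a2, 0.92 ± 0.26 for Col2a1 and 0.66 ± 0.17 for Col27a1 (SE; edgeR adjusted p = 1, 0.897 and 0.716).

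Chondrocyte markers are given beside the type II, IX and XI chains, since these are also cartilage collagens. The 8 genes summed to 184 to 214 CPM in control, 157 to 300.5 CPM with FST alone, 83.5 to 131 CPM with LIN28B alone and 115 to 171 CPM with both, and none of the 8 was called against control in any of the 3 conditions. Cnmd made up most of each sum, and the median log2 fold change over the 8 genes was 0.22 in LIN28B and 0.55 in FST+LIN28B organoids, opposite in sign to the difference of the sums. The supporting cell list of 10 genes summed to 1489 to 1703 CPM in control, 1646 to 1938 CPM with FST alone, 969 to 1330 CPM with LIN28B alone and 1519 to 1708 CPM with both, with Otoa and Gjb6 lower and Prox1 higher in LIN28B organoids. Otoa was also higher in FST+LIN28B than in LIN28B organoids and lower than in FST organoids. The osteoblast list of 8 genes, 4 of them tested, summed to 5.18 to 11.9 CPM, and Alpl was higher in LIN28B organoids (1.31 ± 0.25, SE; edgeR adjusted p = 0.00695). The chondrocyte and supporting cell sums were lower in LIN28B than in control organoids without overlap, the chondrocyte sum also in FST+LIN28B. The osteoblast sum was higher in LIN28B (7.32 to 11.9 CPM) than in control (5.18 to 6.86 CPM). The part of these lists in the collagen differences was not tested. Endothelial markers, of which Cdh5 and Cldn5 were under 0.1 CPM in every library, summed to 82.2 to 116 CPM in FST+LIN28B beside 30.05 to 45.8 CPM in control. Of that list, Tek alone was at 70.4 to 95.6 CPM in FST+LIN28B and 15.3 to 31.8 CPM in control, and the part of this list in the type IV values was not tested.

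The makeup of the pool was then compared by class. The summed collagen level was 1795 TPM ± 73.5 with FST, 1706 TPM ± 125 with LIN28B and 1671 TPM ± 81.8 with both (SD, n = 3), all below control. Fibrillar chains held 30.5% ± 1.97 of the collagen TPM in control, 22.1% ± 1.77 with FST, 24.0% ± 0.288 with LIN28B and 17.4% ± 0.547 with both (SD, n = 3). The libraries of FST+LIN28B did not overlap with those of any other condition for the fibrillar share. Much of the fibrillar difference lay in Col2a1, at a mean of 404 TPM in control, 123 with FST, 189 with LIN28B and 110 with both. Shares without Col2a1 were not computed, so a change across the class is not shown. Network chains held 7.84% ± 1.73, 11.002% ± 0.915, 10.8% ± 1.85 and 16.2% ± 2.14 in the same order (SD, n = 3), and FST+LIN28B libraries were again apart from all others. In absolute terms the network sum was 183 TPM ± 36.0 in control and 271 TPM ± 47.9 in FST+LIN28B, and the fibrillar sum 719 TPM ± 82.8 and 289.6 TPM ± 5.33 (SD, n = 3). The network sum rose through Col4a1 and Col4a2, at 81.7 and 56.3 TPM on average in control and 138 and 95.1 TPM in FST+LIN28B.

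FACIT chains held 45.1% ± 1.31 in control and 45.2% ± 5.12, 42.8% ± 2.23 and 42.1% ± 1.13 in FST, LIN28B and FST+LIN28B (SD, n = 3), with overlap between control and both single transgenes. The remaining classes, in which Col18a1 was the main member, held 16.5% ± 2.11 in control and 24.4% ± 2.35 in FST+LIN28B (SD, n = 3), while their sum was 385 TPM ± 32.5 and 407 TPM ± 19.8. Over the 4 classes and 5 pairwise comparisons, 20 exact two-sided permutation tests were run, and 13 gave p = 0.1, the smallest that 3 against 3 libraries allow, with an adjusted p = 0.154. No class share could therefore pass a threshold of 0.05. The shares sum to a fixed total within a library, so a lower fibrillar share raises the others.

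**Figure D4:**
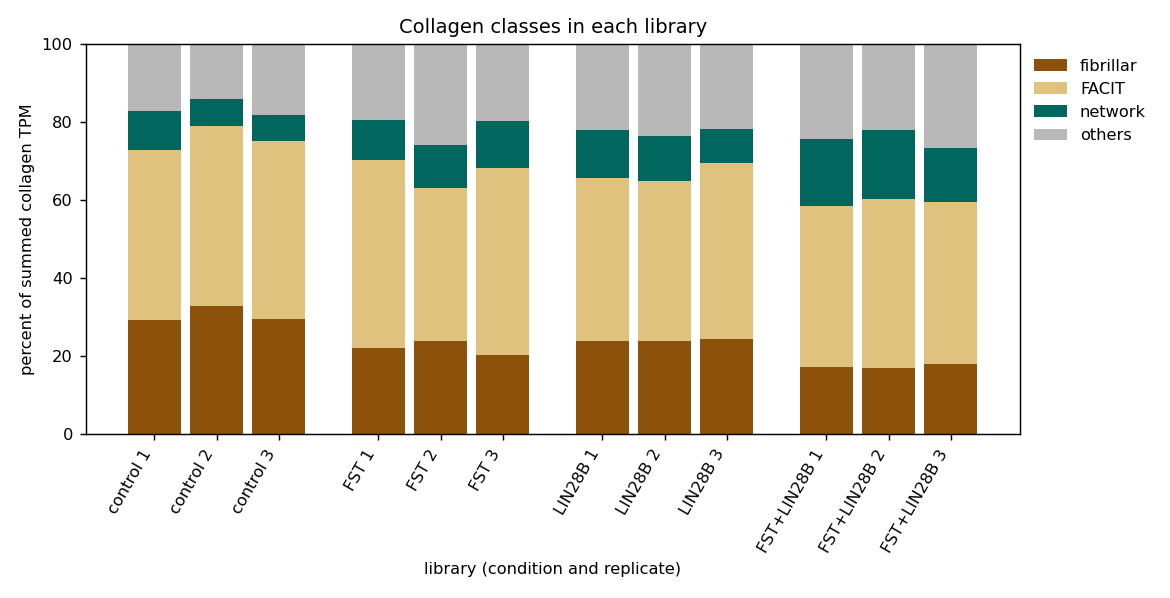
Share in percent of the summed collagen TPM held by fibrillar, FACIT, network and all other chains in each of the 12 libraries; each stacked bar is 1 library and sums to the whole pool. The fibrillar part is largest in control (30.5% on average) and smallest in FST+LIN28B (17.4%), where the network part is largest (16.2%).

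Chains that share a trimer did not keep their ratio in types XI and IX, where the denominators Col11a2 and Col9a3 were themselves called. The type IV pairs Col4a1 with Col4a2 and Col4a5 with Col4a6 kept theirs within the spread of the libraries. No pair with Col4a4 was listed, and in FST+LIN28B organoids Col4a4 differed from control by −1.10 on the log2 scale and Col4a5 by −0.18. Of 10 listed pairs, 5 had both chains at a mean of 1 TPM or more. The ratio of Col11a1 to Col11a2 was 2.61, 2.52 and 2.22 in control, 3.79, 5.20 and 4.26 with FST alone, 10.7, 11.9 and 8.18 with LIN28B alone, and 7.28, 5.73 and 7.38 with both. No condition overlapped with another, and the log2 ratio was 2.05 higher in LIN28B than in control. The ratio of Col9a2 to Col9a3 was 3.85, 4.48 and 4.58 in control, 7.74, 6.15 and 6.66 with FST alone, 3.16, 2.92 and 3.63 with LIN28B alone, and 9.01, 11.97 and 9.54 with both. Here LIN28B libraries lay below control and FST and FST+LIN28B libraries above it, with log2 differences from control of −0.41 in LIN28B and 1.24 in FST+LIN28B. The ratio of Col9a1 to Col9a3 differed from control in the same directions, by −0.74 in LIN28B and 1.06 in FST+LIN28B on the log2 scale.

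For the type IV pair Col4a1 and Col4a2, whose shared promoter stretch is shown above, the ratio lay between 1.27 and 1.74 in all 12 libraries, and every condition overlapped with every other. Log2 differences for this pair ran from −0.10 to 0.08 over the 5 comparisons. The ratio of Col4a5 to Col4a6, also neighbours on opposite strands, lay between 4.97 and 6.86. In 25 exact two-sided permutation tests over the 5 pairs, 14 gave p = 0.1, the smallest possible, with an adjusted p = 0.179.

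**Figure D5:**
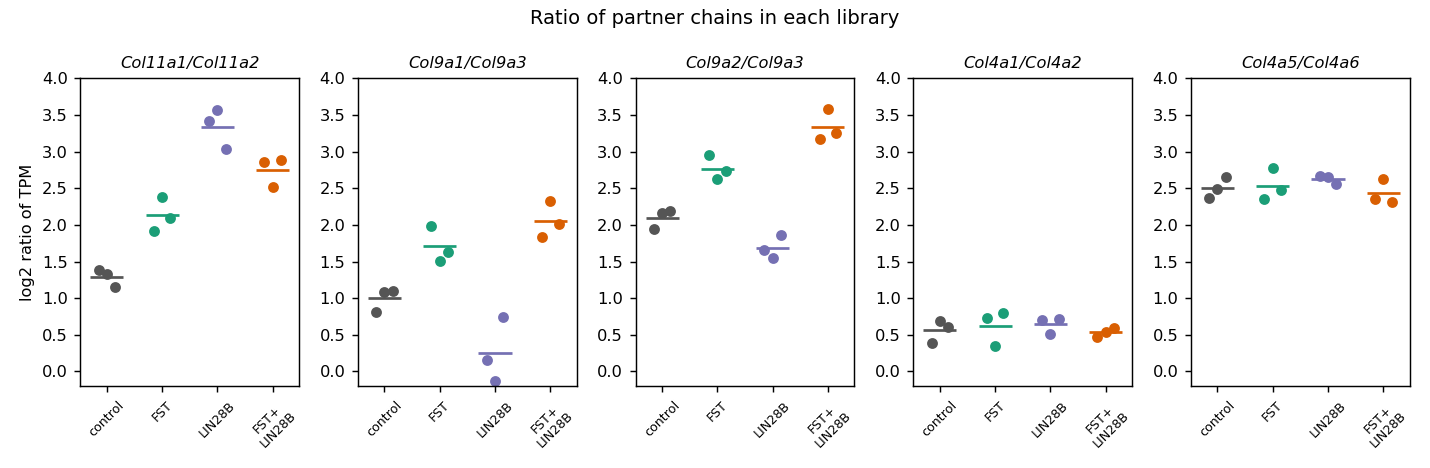
log2 ratio of the TPM of 2 partner chains of a trimer in each library, for 5 pairs on a common axis; points are libraries and lines are means (n = 3). The Col11a1 to Col11a2 ratio is highest in LIN28B, the ratios to Col9a3 are lowest in LIN28B and highest in FST+LIN28B, and those of the type IV pairs overlap between all conditions.

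The machinery around collagen was described from 3 lists. Of 32 collagen processing genes 31 were tested. In LIN28B organoids 4 fell and none rose, and in FST+LIN28B organoids 2 fell and none rose, at list medians of −0.07 and −0.19, beside 1.33% and 0.463% of all genes called lower. Fkbp10, a prolyl isomerase that helps procollagen fold, was at 107, 134 and 116 CPM in control, 123, 81.7 and 127 CPM with FST alone, 58.2, 58.2 and 64.7 CPM with LIN28B alone, and 60.9, 55.4 and 52.5 CPM with both. It fell by 0.98 ± 0.15 in LIN28B and by 1.08 ± 0.15 in FST+LIN28B on the log2 scale against control (SE; edgeR adjusted p = 0.00236 and 0.00245), with no library of either at or above any control library. It also fell by 0.98 ± 0.15 from FST to FST+LIN28B (SE; edgeR adjusted p = 0.00584). Adamts2, an enzyme that removes the amino-terminal propeptide, fell by 0.63 ± 0.13 in LIN28B and by 0.71 ± 0.13 in FST+LIN28B (SE; edgeR adjusted p = 0.00986 and 0.00995). Adamts14, a second such enzyme, and Pcolce2, which enhances removal of the carboxyl-terminal propeptide, fell in LIN28B organoids by 0.71 ± 0.11 and 1.26 ± 0.22 (SE; edgeR adjusted p = 0.00289 and 0.00501).

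Of 12 receptor genes, all tested, Itga11 alone rose in FST+LIN28B organoids, where 0.793% of all genes did, by 1.44 ± 0.25 on the log2 scale (SE; edgeR adjusted p = 0.0083). This integrin chain, which binds fibrillar collagen, was low, at 1.28 to 2.00 CPM in control and 3.52 to 4.6 CPM in FST+LIN28B libraries. Of 14 regulators of collagen genes 12 were tested. Scx, which encodes the tendon transcription factor scleraxis, was at 12.3, 13.4 and 11.1 CPM in control, 2.89, 4.15 and 4.93 CPM with FST alone, 18.3, 26.5 and 26.7 CPM with LIN28B alone, and 3.70, 4.90 and 2.63 CPM with both. LIN28B libraries were above control, and all libraries with FST were below it. Scx fell by 1.71 ± 0.25 in FST+LIN28B organoids against control and by 2.67 ± 0.26 against LIN28B (SE; edgeR adjusted p = 0.00307 and 0.000464). Sox9, the transcription factor that drives Col2a1, Col9 and Col11 genes in cartilage, was not called, with 0.17 ± 0.14 for both transgenes, −0.19 ± 0.14 for LIN28B alone and 0.14 ± 0.14 for FST alone (SE; edgeR adjusted p = 0.64, 0.50 and 1). Sox6, Nfatc4 and the collagen receptor gene Mrc2 passed the test of any difference among the 4 conditions and no pairwise test (edgeR adjusted p = 0.00913, 0.00683 and 0.00827).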

How the data were processed

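Total RNA was sequenced from 12 organoid cultures, 3 libraries in each of 4 conditions, with a ribosomal-depletion kit that keeps strand and paired reads of 50 bases. The authors deposited estimated counts and effective lengths for each of 118489 Ensembl v96 transcripts (GRCm38), made with kallisto 0.46.1. Per the labels, replicates were not pooled, and the same 12 tables supply every value. Estimated counts were summed per gene and rounded to whole numbers. TPM were computed here from the counts and the deposited effective lengths, another value of the tables, so that a TPM depends on how kallisto divided reads among transcripts, including noncoding ones. Transcripts without a gene match (1673) took 0.543% to 0.598% of the counts.

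Genes were filtered with filterByExpr (a minimum count of 10 and a minimum total of 15), normalised by TMM and fitted by condition with edgeR 4.0.16 (quasi-likelihood, robust) in R 4.3.3. P-values were adjusted by the Benjamini-Hochberg method over 18780 genes, and a gene was called at an adjusted p under 0.01. Each SE was taken as the log2 fold change over the root of its F statistic. Shares and ratios were compared by exact two-sided permutation tests over libraries. On data simulated for FST+LIN28B against control over 18780 genes, 70% to 80% of 4-fold and 32% to 34% of 2-fold changes were recovered, with 3 false calls. DESeq2 1.42.0 and limma 3.58.1 served as alternatives. Libraries hold different animals by the study's methods, and the sequencing reads bear no molecular identifiers.

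The members and lists were chosen with earlier results of these data known. Chains called in any test, and uncalled chains with a mean of at least 20 TPM in a condition, were given by library, the rest by range, and of the collagen processing, receptor and regulator lists the called genes were named. Outside this rule, Col1a1, Col4a4, Col5a3, Col10a1, Col26a1, Sox9 and the markers Epcam, Dcn, Lum, Cnmd, Acan, Matn1, Cdh5, Cldn5 and Tek were named after their values were seen. Promoters (250 bases before to 50 after the start) and microRNAs came from RefSeq tables on GRCm38.p6.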

Additional observations from a re-analysis of the deposited data

How the results depend on the processing

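In 375 checks of the 15 calls of named chains under 25 alternatives each, all 375 kept the direction and 313 kept the call. The 15 checks at an adjusted p under 0.05 reread the same fit and could not lose a call. The calls of Col2a1, Col11a2, Col9a3 and Col16a1 in FST+LIN28B, of Col11a2, Col16a1 and Col27a1 in LIN28B, and of Col9a3 between FST+LIN28B and LIN28B held under all 25. When 1 of the 12 libraries was dropped at a time, 4 to 8 chains were called in FST+LIN28B against control, 3 to 7 in LIN28B, 0 to 1 in FST, 1 to 2 between FST+LIN28B and LIN28B, 0 to 4 between FST+LIN28B and FST, 0 in the interaction and 6 to 9 in the test of any difference. DESeq2 called 11, 3, 3, 6 and 14 chains in FST+LIN28B, in FST, between FST+LIN28B and LIN28B, between FST+LIN28B and FST, and in any comparison. An adjusted p under 0.05 gave 9 in FST+LIN28B, 2 between FST+LIN28B and LIN28B, 5 between FST+LIN28B and FST, and 12 in any comparison. A fit of only the conditions compared, which has fewer samples, called 8 in FST+LIN28B, 0 in FST and 0 between FST+LIN28B and FST. Limma on log2(TPM + 1) or log2(TPM + 0.1) called 2 in FST. With Y-linked genes in the design to account for the sex of the animals, 0 were called in FST and 1 between FST+LIN28B and FST, and with coding transcripts alone, an alternative chosen after seeing the data, 1 was called between FST+LIN28B and FST. The cause of these differences was not tested. The share of all genes called was computed for the main edgeR fit alone, so the counts under the alternatives have no background.

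With the replicate number as a block, 3 chains were called in LIN28B, 0 in FST and 1 between FST+LIN28B and FST. The other counts of calls stayed within 1.5 times. Deviations of same-numbered libraries from the condition means correlated at −0.33 to 0.18, with 3 of 18 pairs over 0.1. Those of different-numbered libraries correlated at −0.23 to 0.25, with 12 of 36 pairs over 0.1. With 3 libraries per condition, these values cannot show whether same-numbered libraries shared a litter or a batch.

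The FACIT share of FST minus control was 0.00765 points and turned to −0.0268 with estimated counts and −0.92 without Col9a2, the most abundant chain, and ranged from −1.57 to 2.96 without 1 library. The FACIT share of FST+LIN28B minus LIN28B ranged from −1.50 to 0.59. The log2 ratio of Col4a1 to Col4a2 against control turned to −0.0421 in LIN28B and −0.0578 in FST with counts per gene, and without 1 library it ranged from −0.0038 to 0.15 in LIN28B, −0.0263 to 0.20 in FST, −0.11 to 0.0414 in FST+LIN28B and −0.23 to 0.0027 between FST+LIN28B and FST. That of Col4a5 to Col4a6 ranged from −0.17 to 0.0032 in FST+LIN28B, −0.0924 to 0.12 in FST and −0.20 to 0.0190 between FST+LIN28B and FST. With 3 libraries a condition, shares and ratios could not pass a threshold, and chains with few counts, such as Col24a1 with 1 to 29, are imprecise.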
